A study of Mus musculus with 3 samples.

Results

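The genes described here are 9 noncoding genes that carry small nucleolar RNAs (snoRNAs) in their introns: Gas5, Snhg1, Snhg3, Snhg5, Snhg6, Snhg8, Snhg12, Snhg15 and Zfas1. They were chosen by symbol among the 32285 genes listed in the count files, with earlier results of these data known, and all 9 were found. They were measured by single-cell RNA sequencing in E14, an established line of mouse embryonic stem cells (129/Ola background) kept on gelatin in medium with serum and leukemia inhibitory factor. The series asked how inhibited translation changes the transcriptome of these cells.

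There were 3 libraries, 1 per group. All cells were treated from 24 h after seeding, in medium with 0.007% ethanol. The control received ethanol alone for 6 h, and the other libraries received 250 µg/mL cycloheximide, which stops ribosomes during translation elongation, for 3 h or for 6 h. Per the labels' protocols, cells were detached and frozen before 10x Genomics 3′ v3 barcoding, which captures polyadenylated RNA and gives each captured molecule a unique molecular identifier (UMI). Because each group is 1 library of 1 line, no test between conditions was possible. Intervals are 95% intervals of counting error alone, and every difference has no replicate check. No control was given ethanol for 3 h, and both treated libraries were compared with the same control library.

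A snoRNA host gene is transcribed and spliced, its introns are trimmed to release snoRNAs, and its exons are joined into a separate RNA. The snoRNAs guide chemical changes of ribosomal RNA: those with C and D boxes direct methylation of the ribose, and those with H and ACA boxes direct pseudouridylation. Spliced RNAs of several noncoding hosts, Gas5 among them, have short reading frames and are known to be degraded during translation by nonsense-mediated decay (NMD), which drugs that stop ribosomes are known to block.

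The cells analysed were barcodes with at least 15000 UMIs of which 1 to 20% came from mitochondrial genes. Control, 3 h and 6 h libraries held 2187, 1739 and 2554 such cells, with a median of 43160, 51726 and 46200 UMIs. Each pair of libraries shared 1 to 3 barcodes. All 8 embryonic stem cell markers examined, among them Pou5f1 and Nanog, were above 10 CPM (counts per 1000000 UMIs of the cells) on average and summed to 6373, 7290 and 6678 CPM in control, 3 h and 6 h. Dppa5a made up most of this sum (4771, 5327 and 5475 CPM), and 6 of the 8 markers were lower at 6 h than in the control, with a median log2 ratio of -0.23 and the lowest value, -1.06, for Tfcp2l1. No marker of primitive endoderm, fibroblasts, 2-cell-like cells or differentiating epiblast reached that floor on average. Pou3f1, of the epiblast markers, had 15.5 CPM in the control and 5.17 and 5.07 CPM at 3 h and 6 h. The summed levels of these lists fell between 0.007 and 18.9 CPM in every library, and of the 6 2-cell-like markers 2, 4 and 5 were at 0 in control, 3 h and 6 h. Mitochondrial UMIs made up 4.57%, 3.51% and 2.94% of control, 3 h and 6 h cells, and its part in the results was not tested.

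GENCODE M21 lists 33 snoRNAs inside the 9 genes on the same strand, all within introns of the transcript used for each gene. Of these, 26 end 65 to 81 bases before the 3′ end of their intron, and the other 7 lie farther away, up to 1595 bases. The list holds Snord80 and Snora16a as pairs of overlapping entries. TGATGA near the start and CTGA near the end, the letters of C and D boxes, were found in 20 entries. ACA followed by 3 or 4 bases was found in 7 others, and neither in the remaining 6. One snoRNA of each host is given as GENCODE has it, because the cargo sets the order in which the genes are described. Capitals mark those letters.
Snord47 (Gas5): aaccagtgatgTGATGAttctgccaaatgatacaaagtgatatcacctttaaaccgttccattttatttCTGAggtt
Gm24452 (Snhg1): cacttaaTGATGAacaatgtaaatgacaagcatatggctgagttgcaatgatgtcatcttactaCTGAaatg
Snord50a (Snhg5): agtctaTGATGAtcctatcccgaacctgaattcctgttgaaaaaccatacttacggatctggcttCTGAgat
Snord87 (Snhg6): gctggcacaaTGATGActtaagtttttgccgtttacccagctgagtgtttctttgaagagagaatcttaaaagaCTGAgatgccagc
Snord12 (Zfas1): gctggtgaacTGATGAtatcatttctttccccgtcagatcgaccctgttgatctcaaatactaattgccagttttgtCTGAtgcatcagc
Snord99 (Snhg12): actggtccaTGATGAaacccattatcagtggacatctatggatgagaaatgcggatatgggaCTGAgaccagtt
Snora9 (Snhg15): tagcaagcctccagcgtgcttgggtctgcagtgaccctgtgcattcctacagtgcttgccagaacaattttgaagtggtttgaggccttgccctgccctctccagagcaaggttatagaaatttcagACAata
Snora24 (Snhg8): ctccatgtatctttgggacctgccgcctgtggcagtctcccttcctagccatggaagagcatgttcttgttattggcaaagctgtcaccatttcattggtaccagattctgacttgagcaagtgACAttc
Snora73a (Snhg3): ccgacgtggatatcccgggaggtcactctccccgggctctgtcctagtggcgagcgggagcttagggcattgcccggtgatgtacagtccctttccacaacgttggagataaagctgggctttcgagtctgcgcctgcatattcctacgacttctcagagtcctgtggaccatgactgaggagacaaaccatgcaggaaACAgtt
The count files list 0 symbols that begin with Snord or Snora, so the levels below are those of the polyadenylated host RNAs and not of the snoRNAs.

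Together the 9 genes were at 716 CPM without the drug and reached 4254 CPM after 3 h and 5891 CPM after 6 h. In UMIs per cell these sums were 36.5, 261 and 324. The sum was 5.94-fold higher at 3 h (log2 2.57, 95% interval 2.56 to 2.58) and 8.23-fold higher at 6 h (log2 3.04, 95% interval 3.03 to 3.05) than in the control. Most of the difference was therefore present at 3 h, and 7 of the 9 genes were more than 2-fold higher in both treated libraries. Snhg8 was 1.43-fold higher at 6 h, and Snhg3 was lower in both treated libraries.

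**Figure D1:**
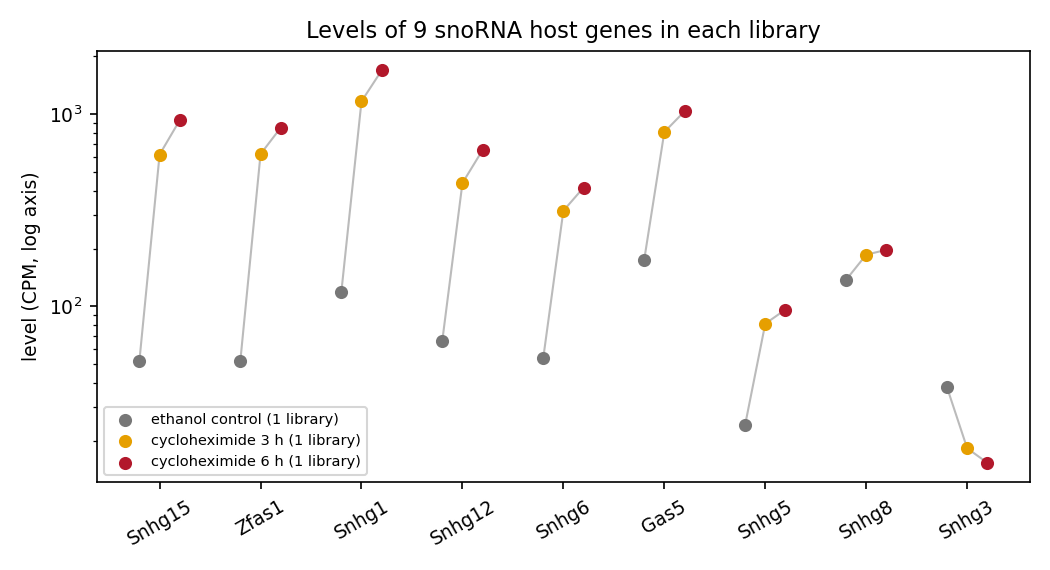
Level of each gene in CPM on a log axis, 1 point per library, with lines joining the points of 1 gene and genes ordered by their ratio at 6 h. Snhg15 went from 52.2 to 618 and 933 CPM, while Snhg3 went from 37.9 to 18.3 and 15.3 CPM.

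Of the 9 genes, 7 were more than 2-fold higher at 3 h, against 4.32% of the 7608 genes whose mean level reached 10 CPM, and 1 was more than 2-fold lower, against 0.513%. At 6 h the same counts were 7, against 8.65% of genes, and 1, against 2.41%. Because the 9 genes were chosen with earlier results of these data known, these counts describe them and are no test. The median log2 ratio of the 9 genes was 2.55 at 3 h and 2.95 at 6 h, and that of all 7608 genes was 0.11 and 0.17. All 9 passed the floor on level in the mean of the libraries. Between 6 h and 3 h none of the 9 differed by more than 2-fold, as did 0.145% of genes in the higher and 0.657% in the lower direction.

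In the transcripts used, the 9 genes have 3 to 12 exons and spliced lengths of 332 to 781 bases, against a median of 3 exons and 1009 bases in 105 other noncoding genes above the floor.

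Among the hosts of C/D snoRNAs, Gas5 (ENSMUSG00000053332, GRCm38 chr1:161034422-161038539, plus strand) holds 10 snoRNA entries. This gene is named for its accumulation in growth-arrested cells. Its level was 174 CPM without the drug, 809 CPM after 3 h and 1036 CPM after 6 h. Gas5 was thus 4.65-fold higher at 3 h and 5.95-fold higher at 6 h (log2 2.57, 95% interval 2.55 to 2.60). It had the highest level of the 9 in the control, where UMIs count captured 3′ ends and were not divided by length, but not in the treated libraries. The protein-coding gene Zbtb37 overlaps it on the opposite strand and had 11.7, 10.2 and 7.25 CPM. How the counting treated overlapping genes and strand is not given in the sources used here.

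Snhg1 (ENSMUSG00000108414, chr19:8723475-8726443, plus strand) holds 8 snoRNA entries, Snord22 among them. It had 118 CPM without the drug, 1168 CPM after 3 h and 1693 CPM after 6 h, the highest level of the 9 in both treated libraries. The ratio was 9.87-fold at 3 h and 14.3-fold at 6 h (log2 3.84, 95% interval 3.81 to 3.86). Its share of the summed level of the 9 genes went from 16.5% to 27.5% and 28.7%. Slc3a2, which encodes the heavy chain of amino acid transporters, starts 106 bases away and is transcribed in the opposite direction. Slc3a2 had 258, 277 and 330 CPM, that is log2 0.10 (3 h) and 0.36 (6 h), so the neighbours differed in size of change.

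Zfas1 (ENSMUSG00000074578, chr2:167062934-167065862, plus strand) holds 3 entries, all with both C and D box letters. Its level was 52.2 CPM without the drug, 621 CPM after 3 h and 852 CPM after 6 h. Zfas1 was 11.9-fold higher at 3 h and 16.3-fold higher at 6 h (log2 4.03, 95% interval 3.99 to 4.07). At 3 h its log2 ratio of 3.57 could not be told apart from that of Snhg15, 3.56, within counting error. Znfx1, a protein-coding gene that overlaps it on the opposite strand and starts 81 bases from its start, had 4.15, 2.64 and 2.18 CPM, with the lowest level at 6 h.

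Snhg6 (ENSMUSG00000098234, chr1:9941959-9944118, minus strand) carries Snord87. It had 53.6 CPM without the drug, 315 CPM after 3 h and 416 CPM after 6 h. The ratio was 5.87-fold at 3 h and 7.75-fold at 6 h (log2 2.95, 95% interval 2.92 to 2.99), the middle value of the 9 in both comparisons. Mcmdc2, a protein-coding gene, overlaps it on the opposite strand. The nearest protein-coding start belongs to Tcf24, 23814 bases away, which had 0.987, 0.955 and 1.10 CPM.

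Snhg5 (ENSMUSG00000097195, chr9:88521050-88522929, minus strand) carries Snord50a and Snord50b. It had the lowest level of the 9 in the control, 24.1 CPM, and 81.3 CPM at 3 h and 96.2 CPM at 6 h. Snhg5 was 3.37-fold higher at 3 h and 3.99-fold higher at 6 h (log2 2.00, 95% interval 1.94 to 2.06), the smallest ratio among the 7 that passed 2-fold. Its nearest protein-coding neighbour by start site, Zfp949, starts 25091 bases away. Zfp949 had 3.87, 12.8 and 14.3 CPM, with log2 ratios of 1.72 and 1.88 beside 1.75 and 2.00 for Snhg5. It passed the floor of 10 CPM only through the treated libraries, and a link between the 2 genes was not tested.

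Snhg12 (ENSMUSG00000086290, chr4:132308623-132311024, plus strand) holds entries of both kinds, among them Snora61 and Snord99. Its level was 66.0 CPM without the drug, 439 CPM after 3 h and 652 CPM after 6 h. Snhg12 was 6.64-fold higher at 3 h and 9.88-fold higher at 6 h (log2 3.30, 95% interval 3.27 to 3.34). Rab42, the nearest protein-coding gene by start site at 5238 bases, had 0.951, 2.06 and 3.90 CPM and so stayed under the floor of 10 CPM.

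The hosts in which only ACA boxes were found differed most among themselves. Snhg15 (ENSMUSG00000085156, chr11:6525591-6528760, minus strand), which carries Snora9, had 52.2 CPM without the drug, 618 CPM after 3 h and 933 CPM after 6 h. It was 11.8-fold higher at 3 h and 17.9-fold higher at 6 h (log2 4.16, 95% interval 4.12 to 4.20), the largest ratio of the 9 at 6 h. Among 7608 genes ordered by the ratio at 6 h, Snhg15 stood at place 7, Zfas1 at 8 and Snhg1 at 10. Myo1g, on the same strand with its start 7795 bases away, had 1.99, 1.66 and 1.24 CPM.

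Snhg8 (ENSMUSG00000104960, chr3:123507552-123508404, minus strand) carries Snora24. It had 137 CPM without the drug, 186 CPM after 3 h and 197 CPM after 6 h. Snhg8 was 1.35-fold higher at 3 h (log2 0.44, 95% interval 0.41 to 0.47) and 1.43-fold higher at 6 h (log2 0.52, 95% interval 0.49 to 0.55). It stood at place 1933 of 7608 genes at 6 h, and both ratios lay within the 5th to 95th percentile of all genes, -0.42 to 0.95 at 3 h and -0.73 to 1.26 at 6 h. The second-highest level of the 9 in the control was therefore seventh of the 9 at 6 h. Prss12, the nearest protein-coding gene by start site, had 1, 1 and 3 UMIs in all cells of the libraries, too few to compare.

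Snhg3 (ENSMUSG00000085241, chr4:132348014-132353686, minus strand) carries Snora73a and Snora73b, the U17 snoRNAs, which act in the cleavage of the ribosomal RNA precursor. Its level was 37.9 CPM without the drug, 18.3 CPM after 3 h and 15.3 CPM after 6 h. Snhg3 was lower in both treated libraries, at 0.482 and 0.404 of the control (log2 -1.05, 95% interval -1.13 to -0.98, and -1.31, 95% interval -1.38 to -1.23). The interval at 3 h reaches past a 2-fold difference. When UMIs per cell replaced CPM, the log2 ratio at 3 h was -0.78. The protein-coding gene Rcc1, a chromatin-bound exchange factor for the GTPase Ran, overlaps Snhg3 on the same strand and starts 81 bases away. Rcc1 had 76.2, 74.3 and 79.5 CPM, log2 ratios of -0.04 and 0.06, and the lincRNA Gm17300 overlaps Snhg3 on the opposite strand.

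**Figure D2:**
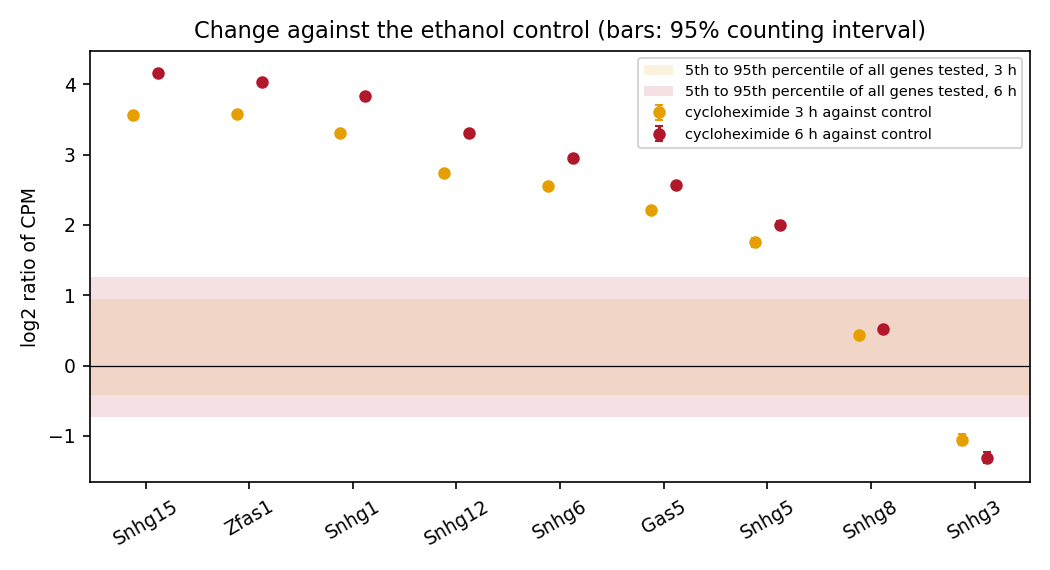
Log2 ratio of CPM against the control at 3 h and 6 h for each gene, with 95% counting intervals that are mostly smaller than the points. Shaded bands span the 5th to 95th percentile of 7608 genes, and Snhg8 alone of the 9 lies inside them in both comparisons.

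In each of the 7 genes that were more than 2-fold higher, most of the 6 h difference was present at 3 h, and the share differed among them. The share of the 6 h difference in CPM that was present at 3 h was lowest for Snhg12 at 63.5% and Snhg15 at 64.2%, followed by Snhg1 at 66.7%. It was 71.1% for Zfas1, 72.2% for Snhg6, 73.6% for Gas5 and 79.3% for Snhg5. For the fall of Snhg3 the share was 87.0%, and for Snhg8 it was 81.3%. Computed from UMIs per cell, the shares of the same 7 genes were 72.6% to 92.8%, since the treated cells differed in UMIs per cell.

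From 3 h to 6 h, Snhg15 had a log2 ratio of 0.60 and Snhg12 of 0.57, and the intervals of these neighbours in the order overlapped. Snhg1 followed at 0.54, Zfas1 at 0.46, Snhg6 at 0.40, Gas5 at 0.36 and Snhg5 at 0.24. The ratio of Snhg3 was -0.25. The value of Snhg8, 0.08, was the closest to 0 and its sign depended on the scaling, with -0.03 after TMM factors and -0.08 in UMIs per cell. The corresponding median of all genes was 0.04, -0.07 and -0.12 under CPM, TMM factors and UMIs per cell. These scalings left the direction of the other 8 genes as given in all 3 comparisons.

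The difference was also looked for cell by cell. Each cell was thinned at random to 15000 UMIs, and the summed UMIs of the 9 genes were expressed per 10000 UMIs. The median in control, 3 h and 6 h cells was 6.67, 41.3 and 57.3, and unthinned it was 7.03, 41.7 and 57.4. The 5th and 95th percentiles were 3.33 and 12 in the control, 23.3 and 60.7 at 3 h, and 34.7 and 82.0 at 6 h. The highest control cell had 18.0, and 27 cells at 3 h and 2 cells at 6 h were at or below it. None of the 2187 control cells reached the 5th percentile of either treated library, which allows a share of up to 0.137%. Thinned to 5000 UMIs, however, 14 control cells (0.640%) reached the 5th percentile of the 3 h cells, which was 20 at that depth. In the range of 15000 to 30000 UMIs the 5th percentile of the 3 h cells was lower, 17.3. There, 3 of 311 control cells (0.965%) reached it, and the highest control cell had 20.7. At 3 h, 73.7% of cells reached the 5th percentile of the 6 h cells. At 5000 UMIs the highest control cell had 28 per 10000, and 317 cells at 3 h and 98 at 6 h were at or below it, so the separation of single cells depended on depth.

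**Figure D3:**
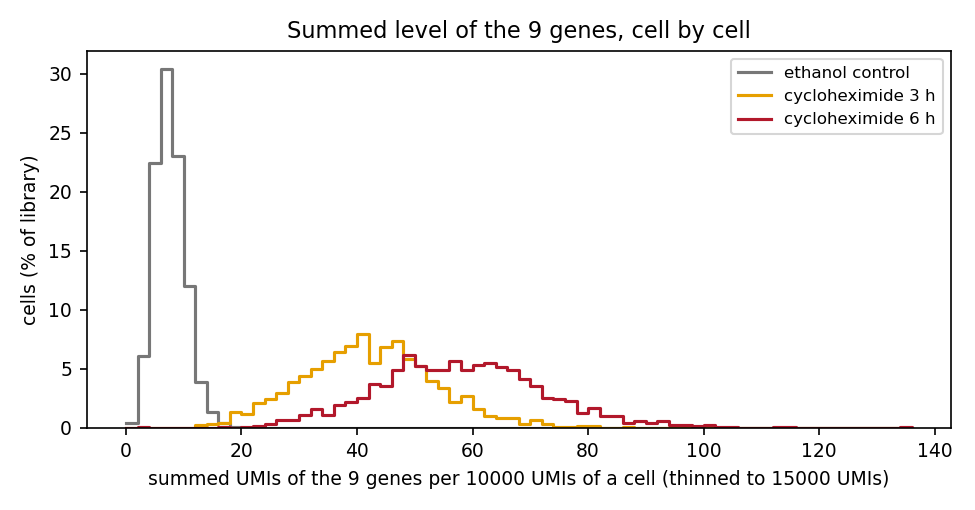
Distribution over cells of the summed UMIs of the 9 genes per 10000 UMIs, after thinning to 15000 UMIs, in bins of 2 and as a percentage of the cells of each library. Control cells end at 18.0, while the medians are 41.3 at 3 h and 57.3 at 6 h.

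Shares of cells with at least 1 UMI of a gene were compared at the same depth. Snhg15 was detected in 53.2% of control cells and 99.6% of cells at 3 h, and at 6 h in all but 1 of 2554 cells. Zfas1 went from 53.7% to 99.8% and 99.9%, and Snhg6 from 55.4% to 97.9% and 99.5%. Snhg12 was detected in 59.9%, 99.3% and 99.8% of cells, Snhg1 in 82.6% of control cells and Gas5 in 92.1%. The RNAs of these 6 genes were therefore found in nearly every treated cell.

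Snhg5 was detected in 29.3% of control cells (exact binomial 95% interval 27.4 to 31.3), 65.9% at 3 h and 70.3% at 6 h. Snhg8 was detected in 86.2%, 92.0% and 92.8%. Snhg3 was detected in 42.5% of control cells (95% interval 40.4 to 44.6), 25.9% at 3 h (95% interval 23.9 to 28.1) and 21.2% at 6 h (95% interval 19.7 to 22.9). Without thinning the shares of Snhg3 were 77.0%, 60.4% and 53.2%, and those of Snhg5 were 63.3%, 92.8% and 93.8%. The direction of both was the same at either depth.

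**Figure D4:**
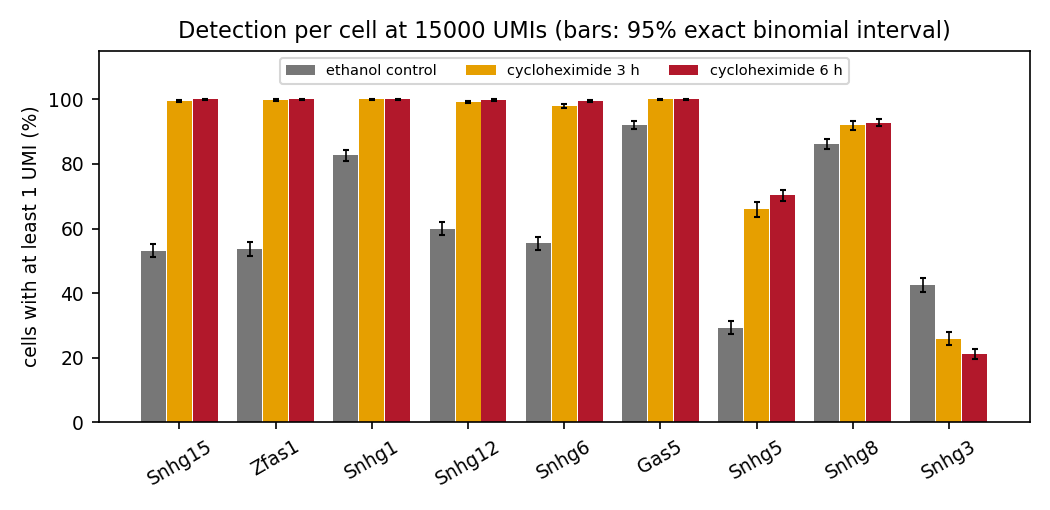
Percentage of cells with at least 1 UMI of each gene after thinning to 15000 UMIs, per library, with exact binomial 95% intervals. Snhg3 alone of the 9 has its highest share, 42.5%, in the control.

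Free RNA in droplets can add UMIs to cells. In barcodes of 10 to 100 UMIs the 9 genes summed to 1038 CPM without the drug, 3939 CPM after 3 h and 5789 CPM after 6 h, against 716, 4254 and 5891 CPM in cells. For Snhg3 the free RNA level was 59.7, 27.2 and 29.3 CPM, above its level in the cells of each library. In the control the free RNA level was also above that of cells for Snhg5 (62.8 against 24.1 CPM), Snhg1 (221 against 118) and Snhg12 (111 against 66.0). The same held there for Zfas1 (93.4 against 52.2), Snhg15 (81.4 against 52.2) and Gas5 (230 against 174), but not for Snhg6 and Snhg8. After subtracting free RNA at 10% of the UMIs of a cell, the log2 ratio of the sum was 2.66 at 3 h and 3.12 at 6 h. There is no cell type without these genes in the culture, so a background share of cells was not measured.

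The ratio of the sum also varied with the UMIs of the cells. In cells of 15000 to 30000 UMIs the log2 ratio of the sum was 2.24 at 3 h and 2.72 at 6 h. It was 2.55 and 3.03 in cells of 30000 to 60000 UMIs, and 2.62 and 3.09 in those above 60000. Gas5 went with it, with 2.25, 2.53 and 2.65 at 6 h, and Snhg15 with 3.84, 4.10 and 4.25. Snhg3 was lower than in the control in all of these ranges, with log2 ratios at 6 h of -1.20, -1.13 and -1.49. Between 6 h and 3 h, however, Snhg3 had 0.34 in the range of fewest UMIs and -0.20 and -0.41 in the others, and Snhg5 had -0.08, 0.31 and 0.23. The part that UMIs per cell have in these ratios was not tested.

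Within a library, the UMI counts of the genes were weakly related across cells. The median Pearson r of the 36 pairs was 0.03 over 2187 control cells, 0.13 over 1739 cells at 3 h and 0.17 over 2554 cells at 6 h. The highest were those of Gas5 and Snhg1, 0.39 at 3 h and 0.40 at 6 h, against 0.08 in the control. All points of such a value share 1 library and were thinned to 1 depth. At that depth Gas5 had a mean of 2.66 UMIs per control cell, against 11.8 at 3 h and 15.1 at 6 h. Snhg1 had 1.82, against 17.2 and 24.8. Counting error weighs more at lower counts, so r cannot be compared between the libraries, and these values are descriptions only. The thinned sum of the 9 genes had a Spearman correlation with the UMIs of a cell before thinning of -0.06, 0.21 and 0.25 in control, 3 h and 6 h. With the mitochondrial percentage of a cell it was 0.002, -0.14 and -0.06. The part of either in the r of the pairs was not tested. The median number of the 9 genes with a UMI per cell was 6 in the control and 8 in each treated library.

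Other noncoding genes listed by name as snoRNA hosts moved in both directions. Of 12 symbols in the list, Snhg7 was not found, and 9 identifiers passed the floor of 10 CPM. At 6 h, 3 of the 9 were more than 2-fold higher and 4 more than 2-fold lower, against 8.65% and 2.41% of all genes. The median log2 ratio was -0.88 (3 h) and -0.79 (6 h), a sign that turned at 3 h after free RNA subtraction (0.33). These medians are the values of Snhg20 at 3 h and Snhg11 at 6 h. Neither gene is among those labelled noncoding with a snoRNA in GENCODE that are described below. With a floor of 50 CPM the median of the list was 2.75 and 3.43. That floor is on the mean of the 3 libraries and kept only the 3 hosts that were more than 2-fold higher. Snhg16 and Snhg17 passed it only through the treated libraries, and no host that was lower passed it. This change of sign was therefore set by the filter. Snhg16 had 19.2, 131 and 213 CPM (log2 3.48 at 6 h) and Snhg17 had 22.2, 150 and 240 CPM (log2 3.43). Dancr had 43.3, 10.4 and 8.27 CPM (log2 -2.39), and Snhg4 (ENSMUSG00000117869) had 49.2, 20.8 and 13.3 CPM (log2 -1.88). Snhg3 was therefore not alone among noncoding hosts in being lower. Its ratio lay between those of Snhg20, -1.18, and Snhg9, -1.52. Of these, Snhg9 holds an annotated snoRNA in GENCODE and Snhg20 does not. Snhg9, Snhg11 and Snhg20 are named here after their values were seen.

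Most protein-coding hosts of snoRNAs lay within 2-fold of the control. Of 20 ribosomal protein genes that host snoRNAs, 0 passed 2-fold in either direction at 6 h, and their median was -0.04 at 3 h and -0.06 at 6 h, a sign that turned with UMIs per cell (0.23 and 0.05). The highest of them at 6 h was Rpl5 at 0.13, and the lowest were Rps2 at -0.21 and Rps13 at -0.26. Of 26 other coding hosts, 3 were more than 2-fold higher at 6 h and 1 lower, near the 8.65% and 2.41% of all genes. Their median was 0.09 (3 h) and 0.01 (6 h), negative after TMM factors (-0.09 and -0.27). Rabggtb had 81.1, 240 and 264 CPM and Eif4a2, a translation initiation helicase, 147, 405 and 470 CPM. At the other end, Prrc2a had 91.7, 97.1 and 63.2 CPM and Hspa8, a constitutive chaperone, 2835, 1125 and 477 CPM.

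**Figure D5:**
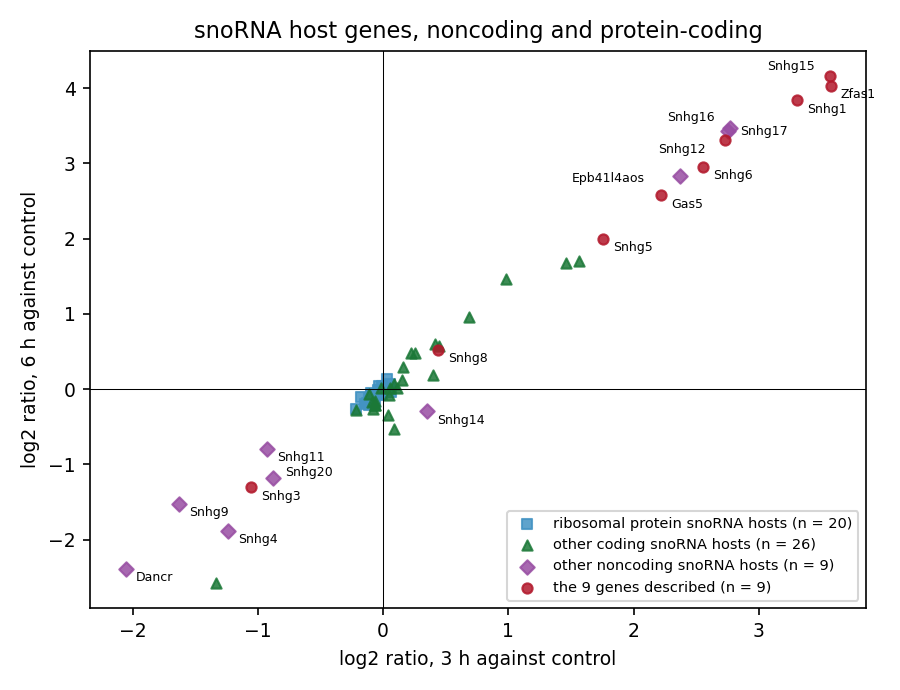
Log2 ratio at 6 h against that at 3 h, both relative to the shared control library, for each gene listed as a host whose mean level reached 10 CPM. Ribosomal protein hosts lie near 0 on both axes, and noncoding hosts extend from -2.39 for Dancr to 4.16 for Snhg15 at 6 h.

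Hosts were also taken from the annotation instead of a list, a comparison added after the values were seen. Of 13 genes besides the 9 that GENCODE labels noncoding and that hold an annotated snoRNA, 6 (46.2%) were more than 2-fold higher at 6 h and 5 more than 2-fold lower. Over all genes these shares were 8.65% and 2.41%. The label is GENCODE's, and these 13 include Cct6a (log2 -0.30 at 6 h), a gene known to encode a chaperonin subunit. Of 92 genes labelled noncoding without a snoRNA, 23 were higher and 5 lower. Among protein-coding genes, 5 of 172 with a snoRNA (2.91%) and 617 of 7320 without one (8.43%) were higher. Noncoding genes with and without a snoRNA were found on both sides of the control, and no test was made.

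Factors of NMD lay closer to the control than the median of the 9 genes did. Of 10 examined, 0 passed 2-fold at 6 h, against 8.65% of all genes in the higher and 2.41% in the lower direction. The median log2 ratio was 0.25 (3 h) and 0.23 (6 h), beside 0.11 and 0.17 for all genes. After TMM factors it was -0.05 (6 h), beside -0.12 for all genes. Upf2, which joins the core factors on the RNA, had 36.9, 56.7 and 73.6 CPM (log2 1.00, just short of 2-fold), and Smg9, a subunit of the kinase complex that acts on Upf1, had 9.84, 15.7 and 18.9 CPM (log2 0.94). Upf3a, at 83.1, 70.6 and 62.0 CPM (log2 -0.42), and Smg8, at 19.6, 21.6 and 15.6 CPM (log2 -0.34), were the lowest.

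The 5 genes outside the 9 whose log2 ratios at 3 h and 6 h lay closest to the median of the 9 were Klf10, Hist1h2bj, 1110038B12Rik, Hist1h2bl and Hist1h3i. Their distances in the plane of these ratios were 0.02, 0.05, 0.07, 0.09 and 0.14, over 3 libraries and 5560 genes. Klf10, a transcription factor gene, had 23.9, 143 and 184 CPM. 1110038B12Rik, which holds an annotated snoRNA, had 126, 766 and 1007 CPM. Hist1h2bj, Hist1h2bl and Hist1h3i had only 8.77, 5.85 and 5.32 CPM in the control. The search used a floor of 20 CPM on the mean of the libraries, which these 3 passed only through the treated libraries. The histone genes have near-identical copies, and how reads shared between copies were counted is not given in the sources used here.

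The exons of the 9 genes were compared with their response, after the values were known, by counting exon junctions more than 50 bases past the end of the first ATG reading frame, a feature by which NMD is known to recognise RNAs. The answer depended on which annotated transcript stood for a gene. With the transcript matched to a RefSeq noncoding record, the rule tried first, 7 genes had such a junction and 2, Snhg3 and Snhg8, had none. Among 105 other noncoding genes, 71 had such a junction under this rule. That rule took transcripts labelled retained intron for Snhg8, with 1 exon, and for Gas5, with 4 exons and 2556 bases. It was replaced because of the choice in Gas5, after its result had been seen. With the transcript of most exons that is not labelled retained intron, all 9 had at least 1: Snhg3 and Snhg6 had 1, Snhg5 and Snhg8 had 2, Snhg12 and Snhg15 had 3, Zfas1 had 4, Snhg1 had 5 and Gas5 had 7. Under this second rule the 2 genes that were not over 2-fold higher were not set apart by having a junction in the transcript used. Of the 105 other noncoding genes, 78 (74.3%) had such a junction under it. Taking the transcript of most exons favours finding a junction, and the first frame of Snhg8 was 1 codon long. Over all annotated transcripts, 2 of 5 of Snhg3 and 2 of 3 of Snhg8 had such a junction. The numbers were 24 of 25 for Gas5, 15 of 18 for Snhg1, 5 of 6 for Snhg5 and 4 of 5 for Snhg6. They were 9 of 10 for Snhg12, 3 of 4 for Snhg15 and 5 of 5 for Zfas1. The UMI counts cannot tell which transcripts the cells contained, since the libraries read 3′ ends.

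Among 105 other noncoding genes the same measure gave 24 of 71 genes with such a junction more than 2-fold higher at 6 h under the RefSeq rule (33.8%) and 5 of 34 without one (14.7%). Under the rule of most exons the counts were 26 of 78 (33.3%) and 3 of 27 (11.1%). At 3 h the RefSeq rule gave 16 of 71 (22.5%) with a junction and 4 of 34 (11.8%) without. The rule of most exons gave 16 of 78 (20.5%) and 4 of 27 (14.8%) at 3 h, a smaller difference than at 6 h. The floor is on the mean of the libraries, so genes raised by the drug could pass it through the treated libraries alone. Both rules gave a larger share for genes with a junction, and no test was made because both rules were chosen with the values known.

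Promoter sequence was available from RefSeq (GRCm38.p6) for 8 of the 9 genes, Gas5 with 2 start sites. A pair of features was looked for after the sequences had been seen. These were TATA, which reads the same on both strands, 40 to 21 bases before the annotated start, and the longest run of C and T on the transcribed strand within 20 bases of it. Genes of the translation machinery often start within such runs. TATA was found at Gas5 site 2, Snhg1, Snhg8 and Snhg12, and in 5.34% of 32851 start sites. A run of at least 6 was found at the same sites and at Snhg5, and in 37.5% of all start sites. The windows from 45 bases before the start to 15 bases from it on are shown for the gene with both features that hardly changed (Snhg8), a gene with both that was over 2-fold higher (Snhg12) and the 2 with the largest ratios (Snhg15 and Zfas1), with TATA and the longest run in capitals.
Snhg8 (chr3:123508322-123508381, minus strand): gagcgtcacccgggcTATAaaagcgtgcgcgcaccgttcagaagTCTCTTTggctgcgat
Snhg12 (chr4:132308633-132308692, plus strand): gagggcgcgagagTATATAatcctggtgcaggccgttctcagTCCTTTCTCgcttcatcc
Snhg15 (chr11:6528746-6528805, minus strand): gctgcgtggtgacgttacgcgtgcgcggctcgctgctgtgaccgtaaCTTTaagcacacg
Zfas1 (chr2:167062889-167062948, plus strand): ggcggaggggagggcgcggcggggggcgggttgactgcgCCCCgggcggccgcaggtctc
Both features were found at Snhg8 and neither in the searched windows of Snhg15 and Zfas1. At Snhg5 a TATA crosses the edge of the searched window and was not counted.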

How the data were processed

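The authors deposited unnormalised UMI counts for each gene in each barcode, which Cell Ranger 4 wrote per the file headers; the submitters' processing notes name Cell Ranger 4.0.0 and mm10. The annotation is not given in the sources used here. Cells were barcodes with at least 15000 UMIs and 1 to 20% mitochondrial UMIs, which left out 62, 1 and 8 barcodes below 1% in control, 3 h and 6 h. No doublet caller was run, and cells above 2 times the median UMIs were left out in an alternative. UMIs were summed per library, scaled to CPM and compared as log2 ratios with a prior of 0.5 counts. Lists and background were limited to genes whose mean over the libraries reached 10 CPM. Intervals are exact Poisson, conditional binomial or Clopper-Pearson intervals at 95%. UMI counts remove copies made by PCR, and the intervals leave out variation between cultures and library preparations.

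Cells were thinned without replacement to 15000 UMIs. Positions, transcripts and snoRNAs are from GENCODE M21 (GRCm38), in which 32158 of 32285 identifiers were found. Named genes outside the 9 are the 2 highest and 2 lowest ratios at 6 h of each list, the nearest protein-coding gene by start site, and the 5 nearest to the median of the 9. One gene that this rule names is not reported here. The members and lists were chosen with earlier results of these data known, and annotation classes, reading frame junctions and promoter features were added after the values were seen. The ratio and interval computations were tested on simulated counts. Python 3.11.15, numpy 2.4.6, scipy 1.17.1 and edgeR 4.0.16 (TMM factors) were used.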

Additional observations from a re-analysis of the deposited data

Results flagged for a closer look

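In barcodes of 10 to 100 UMIs, which hold free RNA and were not counted as cells, the 9 genes reached summed levels of 3939 CPM (3 h) and 5789 CPM (6 h), above 1038 CPM in such barcodes of the control. Prrc2a, a coding snoRNA host, was higher than the control at 3 h (log2 0.08) and lower at 6 h (log2 -0.54), with a log2 ratio of -0.62 for 6 h against 3 h. Smg8, an NMD factor, likewise went from a log2 ratio of 0.14 (3 h) to -0.34 (6 h), and -0.47 for 6 h against 3 h. These differences between time points were not tested, since each rests on 1 library per time.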

How the results depend on the processing

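No paired analysis was possible because each group has 1 library, and for the same reason no library could be left out. Over 9 alternatives, 243 values were recomputed for the log2 ratios of the 9 genes. Of these, 172 stayed within the counting interval, 69 moved beyond it with the same sign and 2 changed sign, Snhg8 at 6 h against 3 h (-0.0278 with TMM factors, -0.0772 in UMIs per cell). The log2 ratio of the summed level at 3 h, 2.57, was 2.40 with TMM factors, 2.84 in UMIs per cell, 2.56 without cells above 2 times the median and 2.66 after free RNA subtraction. At 6 h, 3.04 became 2.75, 3.15, 3.03 and 3.12 in the same order, and 6 h against 3 h, 0.47, became 0.36, 0.31 and, after free RNA subtraction, 0.46. The median of the 9 became 2.38 and 2.82 at 3 h, 2.67 and 3.06 at 6 h, and 0.29 and 0.24 for 6 h against 3 h with TMM factors and UMIs per cell, and 0.38 in the last comparison after subtraction.

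Genes more than 2-fold higher at 3 h, 329, became 710 in UMIs per cell, 81 with a floor of 50 CPM and 4060 with no floor. Those lower, 39, became 64 with TMM factors, 21 in UMIs per cell, 8 and 1458 with these floors. At 6 h the 658 higher became 357 with TMM factors, 164 and 6624 with the floors, and the 183 lower became 395, 44 and 1509. For 6 h against 3 h, 11 higher became 6 with TMM factors, 4 in UMIs per cell, 2 and 3420, and 50 lower became 78 in UMIs per cell, 17 and 1383. The floors change how many genes are tested, and the cause of the other shifts was not tested.

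Signs of list medians also turned. Other coding hosts went to -0.0892 at 3 h and -0.27 at 6 h with TMM factors. Ribosomal protein hosts went to 0.23 and 0.0503 in UMIs per cell. NMD factors went to -0.0549 at 6 h with TMM factors, and for 6 h against 3 h to 0.00295 after free RNA subtraction and 0.00978 with a floor of 50 CPM. The number of NMD factors more than 2-fold higher at 6 h, 0, became 2 in UMIs per cell, and 1 with at least 2000 UMIs, with no mitochondrial limits or after free RNA subtraction. Other noncoding hosts went to 0.33 after free RNA subtraction and 2.75 with a floor of 50 CPM at 3 h, 3.43 with that floor at 6 h, and for 6 h against 3 h to -0.00158 with TMM factors and -0.0510 in UMIs per cell. In this list the floor of 50 CPM kept only hosts that were more than 2-fold higher.

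Per cell, the median summed level was 6.00 in the control and 40 at 3 h when thinned to 5000 UMIs. In cells of 15000 to 30000 UMIs and over 60000 UMIs it was 33.3 and 43.3 at 3 h, and 49.3 and 59.3 at 6 h. The share of 3 h cells at or above the 5th percentile of 6 h cells, 73.7%, was 81.8% when thinned to 5000 UMIs, 71.3% without cells above 2 times the median, and 68.9% and 60.8% in those ranges. The share of control cells at or above the 5th percentile of 3 h cells, 0%, was 0.640% when thinned to 5000 UMIs and 0.965% in cells of 15000 to 30000 UMIs. For all of these shares the percentile was computed anew within each setting. In the treated libraries Snhg3 had the fewest UMIs of the 9 over all cells, 1951 at 3 h and 2151 at 6 h, and in the control Snhg5 had, 2687.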
